A study of Drosophila melanogaster with 3 samples.

Results

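Intronic binding sites of CG18764 close to transcription start sites (TSS) were taken from the authors' optimal peak list on the dm6 build of the fly genome. A peak was a member when its summit, the highest point of the peak, lay 501 to 2000 bp from the nearest TSS of any annotated gene, inside a gene body and outside every annotated exon. Of the 3754 optimal peaks, 529 met this rule (14.1%). Another 1991 peaks lay within 500 bp of a TSS and are called promoter peaks here, and 684 lay in introns more than 2000 bp from any TSS and are called deep intronic peaks. The other classes were intergenic peaks at 501 to 2000 bp (193 peaks), intergenic peaks farther away (268) and exonic peaks (89).

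The chromatin came from whole Drosophila melanogaster embryos of both sexes, collected over 0 to 16 h of development. All embryos were from 1 transgenic line that stably expressed CG18764 fused at its C terminus to GFP, and the fused protein was precipitated with an antibody to GFP. The 3 biological replicates form 1 group, so peaks could be compared with each other but not between conditions. Whole embryos mix all tissues and stages of that window, and no control library was analysed here.

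CG18764 belongs to the ZAD zinc-finger proteins, a large insect family in which a zinc-finger-associated domain near the N terminus joins protein subunits and an array of C2H2 zinc fingers can contact DNA. In flies, the first intron of a gene is often its longest, and introns near a start site commonly hold enhancers and alternative promoters. A site in such an intron lies inside the transcribed unit but apart from the core promoter, where the polymerase assembles.

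The sequences under the strongest members show the base composition of single sites. Shown are the central 100 bp of 9 of the 12 members of highest deposited signal, the sequences of the other 3 being not reported here, and for the top pair also a 100 bp flank centred 300 bp away. Coordinates are dm6, 1-based, and the letters are the plus strand of the RefSeq release 6 assembly. Runs of 6 or more A or T are in capitals.
ush (chr2L:481008-481107): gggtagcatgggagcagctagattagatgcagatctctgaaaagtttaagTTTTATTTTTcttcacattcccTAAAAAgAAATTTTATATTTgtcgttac
ush flank (chr2L:481308-481407): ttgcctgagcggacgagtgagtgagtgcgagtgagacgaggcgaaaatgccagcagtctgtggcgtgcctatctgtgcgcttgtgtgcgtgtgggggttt
CG11050 (chr2L:6612672-6612771): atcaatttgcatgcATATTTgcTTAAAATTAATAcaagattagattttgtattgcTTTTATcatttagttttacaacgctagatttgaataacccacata
CG11050 flank (chr2L:6612972-6613071): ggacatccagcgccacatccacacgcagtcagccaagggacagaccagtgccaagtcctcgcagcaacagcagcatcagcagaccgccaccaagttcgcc
Lk6 (chr3R:11761000-11761099): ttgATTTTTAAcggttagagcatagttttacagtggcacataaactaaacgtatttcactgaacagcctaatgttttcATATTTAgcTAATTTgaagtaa
CG32772 (chrX:4910315-4910414): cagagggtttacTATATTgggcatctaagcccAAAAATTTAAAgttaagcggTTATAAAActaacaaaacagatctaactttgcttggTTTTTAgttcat
cno (chr3R:5215485-5215584): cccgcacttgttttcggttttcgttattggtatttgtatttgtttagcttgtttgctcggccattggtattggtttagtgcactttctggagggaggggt
CG9663 (chr2L:3302132-3302231): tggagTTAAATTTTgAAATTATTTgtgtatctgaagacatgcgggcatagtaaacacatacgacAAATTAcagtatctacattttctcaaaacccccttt
Trl (chr3L:14759455-14759554): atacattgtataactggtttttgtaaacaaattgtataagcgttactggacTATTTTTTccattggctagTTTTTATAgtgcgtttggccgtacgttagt
NFAT (chrX:13640469-13640568): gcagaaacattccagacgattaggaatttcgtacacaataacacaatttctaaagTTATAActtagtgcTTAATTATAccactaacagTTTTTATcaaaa
InR (chr3R:21590791-21590890): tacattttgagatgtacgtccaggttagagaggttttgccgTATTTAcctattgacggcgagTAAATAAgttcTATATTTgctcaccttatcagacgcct

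In 8 of these 9 centres GC content was 25 to 40%, and the centre at cno stood apart at 44% GC with no A/T run over 5 bp. Among all 12 highest members GC content was lower at the centre than in the flank in 8, higher in 3 and equal in 1. At ush the centre held 33% GC against 59% in the flank. At CG11050 the values were 25% and 62%, and there the intron was 140 bp long, so that the flank lay beyond it. The 3 with higher centres were cno (44% against 28%), jing (48% against 30%) and CG31635 (30% against 28%), and at InR both values were 40%. The others were Lk6 (30% and 37%), CG32772 (32% and 46%), HmgD with HmgZ (37% and 60%), CG9663 (33% and 36%), Trl (33% and 44%) and NFAT (29% and 36%).

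Over all 529 members the central 100 bp had a mean GC content of 32.6% ± 7.92 (SD over peaks) and the flank 43.6% ± 9.44. The bases from which members could come, all intronic positions meeting the distance rule, were 38.6% GC, so centres lay below and flanks above that level. GC content was lower at the centre than in the flank in 414 members (78.3%), against 74.6% of all optimal peaks, and higher in 104. The longest run of A or T had a median of 10 bp at the centre and 7 bp in the flank. A GC content of 50% or more was reached by 14 centres (2.65%), against 5.11% of all optimal peaks and 1.02% of deep intronic peaks. Flanks that touched an annotated exon, 74 in all, had 47.2% GC, and the 455 flanks outside exons had 43.0%; centres were lower in 353 of those 455 (77.6%). The trough was not particular to these members: deep intronic centres had 32.5% ± 7.32 GC and promoter centres 34.2% ± 9.54.

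**Figure D1:**
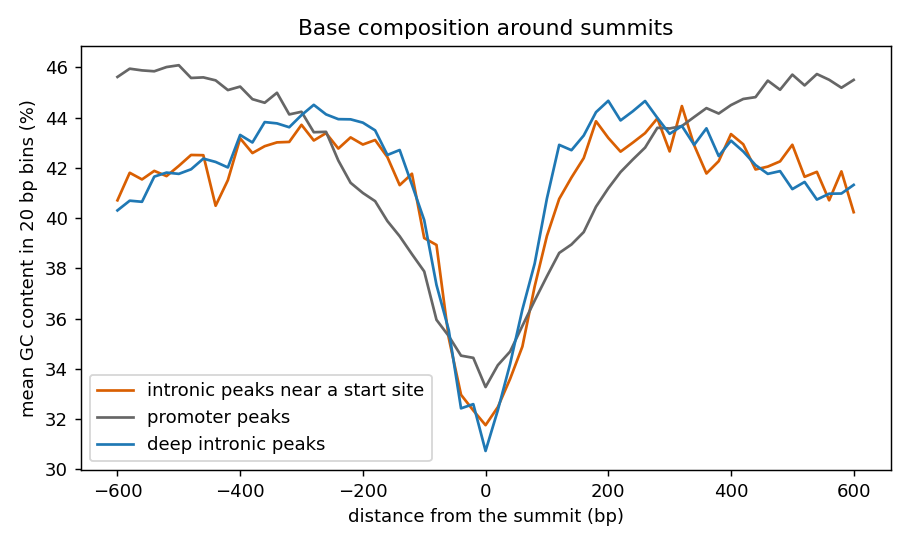
Mean GC content (%) in 20 bp bins against distance from the summit (bp) for the intronic peaks near a start site, promoter peaks and deep intronic peaks. All 3 curves fall at the summit, where the intronic peaks near a start site reached 31.8% and the deep intronic peaks 30.7%.

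Short consensus sequences of known fly regulators were counted on both strands at the centre and in the flank. The TATA box letters TATAAA, known from core promoters, were in 123 centres (23.3%, Wilson 95% interval 19.9 to 27.0%) and 52 flanks (9.83%, 7.58 to 12.7%). The homeodomain core TAATTA was in 55 centres (10.4%) and 27 flanks (5.10%), and the GATA factor site GATAA in 138 (26.1%) and 98 (18.5%). Over all optimal peaks the shares were 9.91% and 5.73% for TAATTA and 23.8% and 17.8% for GATAA. All 3 are letters rich in A and T, as were the 6-letter strings with the largest excess of centres over flanks, for example ATTTTA in 159 centres and 62 flanks.

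Several sequences with more G and C were more frequent in flanks. The GAGA repeat GAGAG, read by the GAGA factor, was in 57 centres (10.8%) and 101 flanks (19.1%). The dinucleotide repeat CACACACA was in 10 (1.89%) and 29 (5.48%). The E-box CACATG, a site of bHLH factors, was in 13 (2.46%) and 32 (6.05%), and the E-box CAGCTG in 15 (2.84%) and 29 (5.48%). Others with G and C were not lower at the centre but were rare in both, such as the AP-1 site TGACTCA in 9 centres and 5 flanks and the CTCF core AGGTGGCG in 5 and 2. Deep intronic peaks had a like pattern for TATAAA, with 21.3% of centres and 6.58% of flanks, and all optimal peaks had 21.6% and 9.86%. GAGAG was in 11.8% and 14.5% for deep intronic peaks and in 9.38% and 15.2% for all optimal peaks. Over all optimal peaks CACACACA was in 1.09% and 3.89%, CACATG in 3.01% and 5.11%, and CAGCTG in 3.17% and 4.93%. The direction of these differences was therefore not particular to the members.

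A boundary sequence found at promoters was scarcer in these counts of members than of promoter peaks. The letters CGATA, the core read by the boundary protein BEAF-32, were in 50 member centres (9.45%) and 53 flanks (10.02%), and in 23.9% of promoter centres against 12.3% of promoter flanks. The palindrome TATCGATA, which contains that core and is known as the DRE of the promoter factor DREF, was in 1 member centre (0.189%, interval 0.0334 to 1.06%) and in 78 promoter centres (3.92%). Deep intronic centres were close to the members, with CGATA in 9.65% and TATCGATA in 0.146%, so this scarcity was not particular to the members. Over all optimal peaks the centre shares were 17.3% and 2.21%. These are counts of letters in 1 merged peak list and were not tested. CGATA followed by A also contains GATAA.

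**Figure D2:**
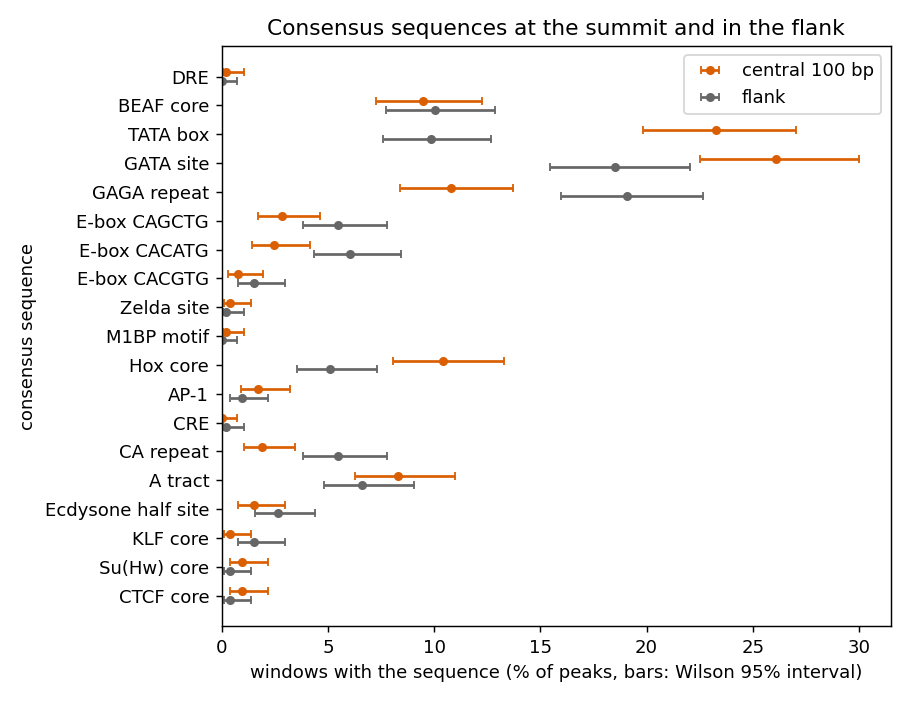
Share of the 529 intronic peaks near a start site (%) whose central 100 bp or flank held each consensus sequence on either strand, with Wilson 95% intervals as bars. The TATA box stood at 23.3% in centres against 9.83% in flanks, and the GAGA repeat at 10.8% against 19.1%.

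Further members are shown, each marked for a different consensus sequence, with matches to that sequence in capitals. The TATA box is marked at CG9837, an E-box of bHLH factors at Reph and the GATA site at brat. The BEAF core is marked at for, a run of A at Baldspot and the GAGA repeat at ImpL2. Matches to other consensus sequences were left in lower case. Examples are a GATA site at CG9837, and a TATA box and a run of A at Reph. A match on the minus strand appears as its reverse complement.
CG9837 (chr3R:8811626-8811725): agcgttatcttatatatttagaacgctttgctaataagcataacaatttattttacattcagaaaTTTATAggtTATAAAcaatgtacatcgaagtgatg
Reph (chr2L:3804718-3804817): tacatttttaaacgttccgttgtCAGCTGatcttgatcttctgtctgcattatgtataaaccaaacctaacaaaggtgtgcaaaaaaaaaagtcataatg
brat (chr2L:19165115-19165214): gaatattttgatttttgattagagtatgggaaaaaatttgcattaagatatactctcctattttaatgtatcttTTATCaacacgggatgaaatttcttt
for (chr2L:3655777-3655876): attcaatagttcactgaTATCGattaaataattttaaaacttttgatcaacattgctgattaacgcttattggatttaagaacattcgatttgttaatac
Baldspot (chr3L:16660546-16660645): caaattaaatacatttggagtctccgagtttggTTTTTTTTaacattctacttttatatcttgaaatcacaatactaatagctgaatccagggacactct
ImpL2 (chr3L:4228307-4228406): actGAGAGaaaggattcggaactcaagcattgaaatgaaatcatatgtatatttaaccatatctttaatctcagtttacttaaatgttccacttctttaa

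Ranks by deposited signal ran through the whole optimal list, from 7 to 3754 with a median of 1926 for the members. Rank 500 or better was held by 65 members (12.3%, Wilson 95% interval 9.76 to 15.4%), against 13.3% of all optimal peaks, which the length of the list fixes. Peak width had a median and an upper quartile of 400 bp, both the same as over all optimal peaks. The introns that held the members had a median length of 4937 bp (lower and upper quartiles 2201 and 11133 bp).

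The highest member lay in the first intron of ush, which encodes the zinc-finger cofactor U-shaped of GATA factors. Its summit at 2L:481058 ranked 10, 9 and 8 in replicates 1, 2 and 3. Its nearest TSS was not that of ush but that of cbt, which encodes a Krüppel-like zinc-finger factor, 1370 bp away with the summit on the upstream side. The second, at 2L:6612722 in CG11050, ranked 19, 7 and 13. The third, at 3R:11761050 in Lk6, the gene of a kinase of the translation factor eIF4E, ranked 21, 21 and 27. These sites therefore stood in the top 30 of every replicate.

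Further strong members included sites in cno, Trl, NFAT and InR. The site in cno, which links adherens junctions to actin, ranked 113, 34 and 62. In Trl, which encodes the GAGA factor, the strongest of its 3 members ranked 88, 70 and 44. The summit in NFAT, a transcription factor gene, ranked 85, 99 and 89. In InR, the insulin receptor gene, ranks were 128, 111 and 136, and a second InR member ranked 536, 308 and 201.

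Among the next members in order were sites in the kinase gene for (ranks 163, 131 and 278), the translational repressor gene brat (257, 118 and 140) and the KH-domain RNA-binding gene mub (124, 192 and 128). The site in norpA, the phospholipase C of phototransduction, ranked 221, 177 and 204. The one at CG17698 varied most among the 30 highest, at 87, 465 and 177, and its nearest optimal summit was 643116 bp away. The rest of those 30 lay in CG32772, HmgD with HmgZ, CG9663, jing, CG31635, CG9837, chif with Hyls1, CG3726, Adf1, Reph, Rab3-GEF, CG31612, Alh, lncRNA:CR44810, Mekk1, edl, LPCAT and Baldspot, with mean ranks from 35.3 to 308. Of all 30, 14 had their summit upstream of the nearest TSS.

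**Figure D3:**
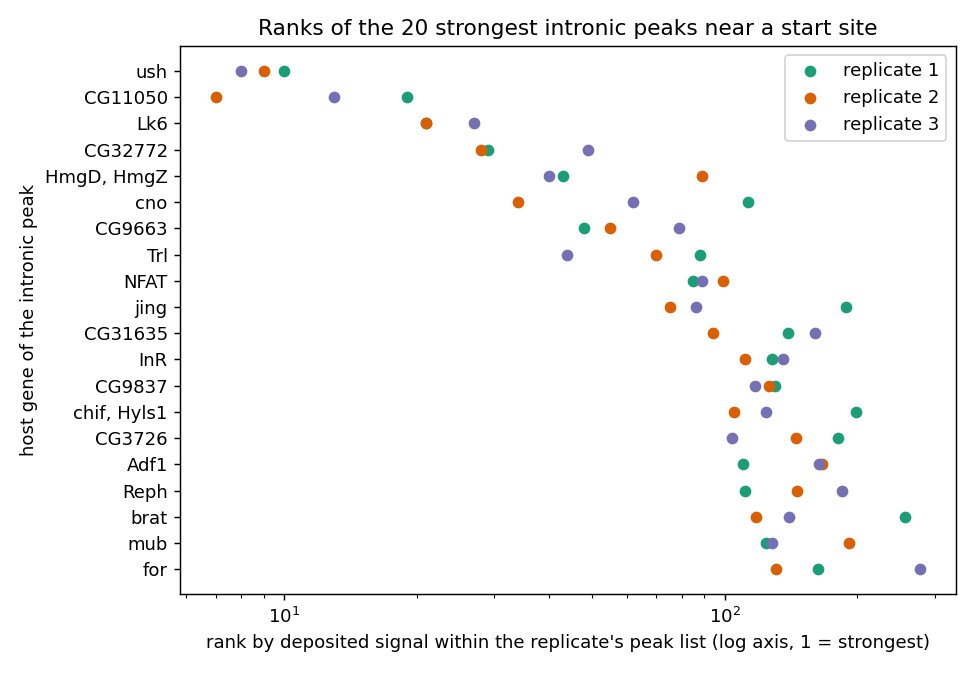
Rank by deposited signal (log axis, 1 is strongest) of the 20 strongest intronic peaks near a start site in each replicate's own list, by host gene. The site in ush lies at 8 to 10 in all replicates, while the site in for spreads from 131 to 278.

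Most members were found again in each replicate. A member counted as found when a summit lay within 100 bp among the 3754 highest peaks of the replicate. In replicate 1, 398 members were found (75.2%, against 75.0% of all optimal peaks). Replicate 2 held 457 (86.4%, against 83.9%) and replicate 3 held 421 (79.6%, against 80.4%), a mean of 80.4% ± 5.62 (SD, n = 3). The top lists of all 3 replicates held 298 members (56.3%, against 56.8% of all optimal peaks). A further 157 members were found in 2 of them, 68 in a single one and 6 in no list. The optimal list was made from these replicates, so recovery follows in part from how it was built.

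Recovery differences between the members and promoter or deep intronic peaks were of a few percentage points, and their sign changed with the lists used. Promoter peaks were recovered at 76.2, 83.8 and 81.8% and deep intronic peaks at 72.2, 85.4 and 78.9%. The mean difference of the members from promoter peaks was −0.226 percentage points ± 2.49 (SD, n = 3), higher in 1 of 3 replicates (two-sided exact permutation p = 1, adjusted p = 1). Without replicate 1 it was 0.164 and without replicate 3 it was 0.778, so its direction rested on single replicates. From deep intronic peaks it was 1.55 ± 1.28, higher in 3 of 3 (exact permutation p = 0.25, adjusted p = 0.281). With 3 replicates 0.25 is the smallest p this two-sided test can give, and the adjustment is Benjamini-Hochberg over 9 tests.

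Signal rank did order the 3 classes, alike in each replicate. The median rank of members found in the relaxed lists was 1968, 1876 and 1910 in replicates 1, 2 and 3. For promoter peaks it was 1501, 1655 and 1678, and for deep intronic peaks 2221, 2067 and 2299.5. Members thus ranked below promoter peaks by 307 places ± 139 (SD, n = 3) and above deep intronic peaks by 278 ± 102, each in 3 of 3 replicates (exact permutation p = 0.25, adjusted p = 0.281, for both). Intergenic peaks at 501 to 2000 bp had median ranks of 1919, 1964 and 1816, near those of the members, so this middle place was not particular to introns. Within the members, median rank moved without order over distance, from 1750 at 1001 to 1250 bp to 2049 at 501 to 750 bp.

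Some members were absent within 100 bp even from a whole relaxed list of 30000 peaks: 38 in replicate 1 (7.18%, against 8.44% of all optimal peaks), 14 in replicate 2 (2.65%, against 3.28%) and 17 in replicate 3 (3.21%, against 3.09%). These shares lay near those of the whole list. The strongest was in Prps, a phosphoribosyl pyrophosphate synthetase gene, which ranked 410 in the optimal list, 477 and 436 in replicates 1 and 2, and was absent in replicate 3. A member in CHES-1-like at X:7705487 ranked 526 in the optimal list, 424 and 704 in replicates 2 and 3, and was absent in replicate 1. Its neighbour, a member 199 bp away, ranked 565 in replicate 1. Sites in pico, CG9135 and bon (optimal-list ranks 506, 570 and 800) were absent from replicate 1 as well, and one in CycE (870) from replicate 3. The next optimal summit lay 202 bp from the Prps site and 226 bp from the bon site. For pico, CG9135 and CycE it was 2057, 11485 and 14809 bp away. Of 138 members at rank 1000 or better, 4, 0 and 2 were absent from replicates 1, 2 and 3. The share of all optimal peaks at those ranks is not given here, so these counts have no background. In all, 36 members (6.81%) had another optimal summit within 500 bp, close to the 7.03% of all optimal peaks.

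The count of summits was then set against the bases they could fall in, using each replicate's own 3754 highest peaks. Among these, 516, 524 and 505 met the positional rule in replicates 1, 2 and 3, a share of 13.7% ± 0.254 (SD, n = 3). The rule covers 11.4 Mb of intron. That gave 4.51, 4.58 and 4.41 summits per 100 kb, against 1.70, 1.72 and 1.56 in deep introns and 2.83, 2.34 and 2.58 in intergenic sequence at the same distances. Members were denser than deep introns by 2.84 ± 0.0254 summits per 100 kb and than near intergenic sequence by 1.92 ± 0.290 (SD, n = 3), each in 3 of 3 replicates (exact permutation p = 0.25, adjusted p = 0.281, for both). Sequence within 500 bp of a TSS held 10.9 ± 0.430.

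Density fell with distance from the start site. It was 6.15 ± 0.191 summits per 100 kb of intron at 501 to 750 bp, 4.29 ± 0.184 at 1001 to 1250 bp and 3.51 ± 0.230 at 1751 to 2000 bp. The nearest bin exceeded the farthest of these by 2.64 ± 0.0910, in 3 of 3 replicates (exact permutation p = 0.25, adjusted p = 0.281). Beyond the rule it continued to 2.52 ± 0.169 at 2001 to 5000 bp and 0.832 ± 0.0825 over 10000 bp. The neighbours 1501 to 1750 bp (3.28 ± 0.0684) and 1751 to 2000 bp did not keep this order.

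**Figure D4:**
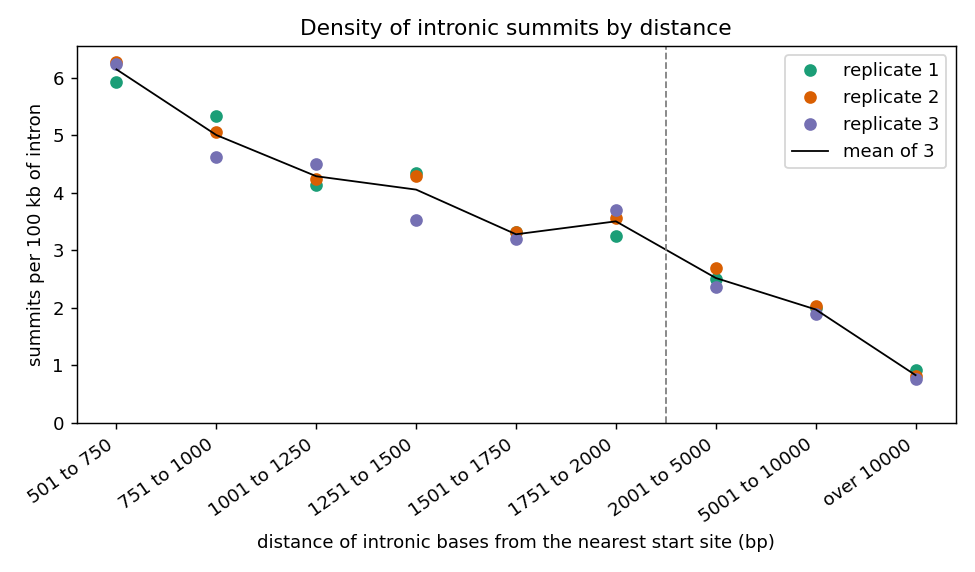
Intronic summits per 100 kb of intron against distance from the nearest start site (bp), for each replicate's own highest peaks and their mean. Points left of the dashed line meet the positional rule; the mean runs from 6.15 in the nearest bin to 0.832 over 10000 bp.

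First introns held most members and were also denser. Of the 529 summits, 449 (84.9%, Wilson 95% interval 81.6 to 87.7%) lay in the first intron of at least 1 transcript, and first introns made up 7.38 Mb of the 11.4 Mb. Replicate lists gave 5.83, 6.06 and 5.84 summits per 100 kb in first introns and 2.11, 1.89 and 1.82 in later introns. The difference was 3.97 ± 0.231, in 3 of 3 replicates (exact permutation p = 0.25, adjusted p = 0.281). It was present at both distances: 6.97 ± 0.0866 against 2.50 ± 0.265 at 501 to 1000 bp, and 5.16 ± 0.162 against 1.66 ± 0.133 at 1001 to 2000 bp. The GC content of these bases was 39.0% in first introns and 37.9% in later introns.

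The side of the start site was uneven in count, and nearly even per base. Summits lay downstream of the nearest TSS, in the direction of transcription, in 343 members (64.8%) and upstream in 186. Downstream bases were 7.39 Mb and upstream bases 4.05 Mb, and the optimal list held 4.64 and 4.59 members per 100 kb on them. In the replicate lists the values were 4.60 ± 0.122 and 4.32 ± 0.0377, a difference of 0.271 ± 0.118 (exact permutation p = 0.25, adjusted p = 0.281). In the 1877 highest peaks of each replicate it was −0.0784 ± 0.411. The nearest TSS belonged to a gene that held the summit in 448 members (84.7%), and in 130 of these the summit was upstream of it, inside a longer transcript of the same gene.

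**Figure D5:**
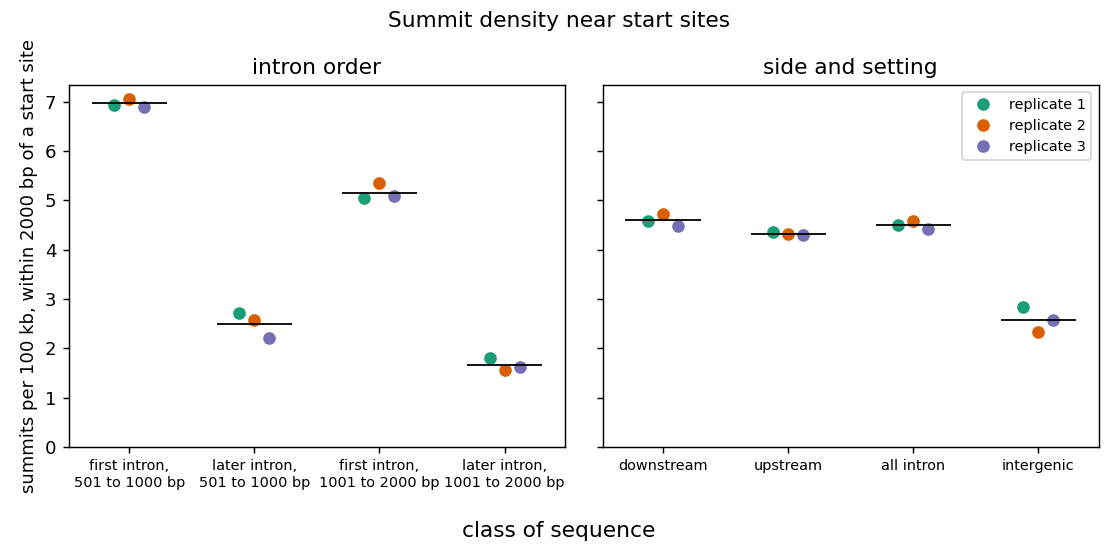
Summits per 100 kb in each replicate's own highest peaks (points) with their mean (line), left by intron order and distance, right by side of the nearest start site and for all rule-meeting intron against intergenic sequence at 501 to 2000 bp. First introns lie at 6.90 to 7.07 and 5.04 to 5.35 in the 2 distance ranges, above later introns in each replicate.

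Most members had no peak at their nearest start site. The nearest TSS had an optimal summit within 500 bp for 106 members (20.04%, Wilson 95% interval 16.8 to 23.7%), and any TSS of a host gene had one for 221 (41.8%). Deep intronic peaks were close to these shares, at 19.2% and 39.5%. Of the 451 protein-coding genes that held a member, 178 had a promoter peak (39.5%), against 20.8% of the 9015 coding genes with at least 1 base meeting the rule. Among genes with at least 1000 such bases the shares were 39.4% of 409 with a member and 19.4% of 2621 without. Another optimal summit lay within 5000 bp of 322 members (60.9%), against 49.3% of all optimal peaks and 47.2% of deep intronic peaks, and 123 had another member in that range. Peaks cluster along the genome, so these are shares of 1 merged list with no replicate error.

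The 529 members lay in 467 genes, 451 of them protein-coding, which is 5.00% of the 9015 coding genes where a member was possible. A single member was held by 394 genes, 2 by 53 and 3 or more by 20. Genes with a member offered a median of 3316 rule-meeting bases and all such genes 387, so a longer gene had more room for one.

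CG1677, together with lncRNA:CR44357 which overlaps it, held 7 members, the best at rank 359, or 30.5 per 100 kb of its rule-meeting bases. The best lay in the first intron of Dok, a gene inside CG1677, 795 bp downstream of the Dok TSS. Those at ranks 768 and 827 had the TSSs of CBP and brk nearest, and the one at 2451 also lay in CBP. NFAT held 6 (99.4 per 100 kb), at ranks from 90 to 3303. CHES-1-like, a forkhead factor gene, held 5 (66.8) and Svil, the supervillin gene, also 5 (14.2). Genes with 4 members were HmgZ, an HMG-box chromatin protein gene, CG10543, the chromatin factor gene tou and the kinase gene Tlk. Those with 3 were HmgD, Trl, CG9837, Dys, shn, RhoGAP18B, pum, CG42258, CG43658, CG9674 and Kdm2. The members of Kdm2, a JmjC-domain gene, were the weakest of these, with optimal-list ranks of 3305, 3634 and 3750 in 1500 rule-meeting bases.

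Lists of genes by known function were read against the 5.00% of all coding genes and against their own room. Over all rule-meeting bases the optimal list held 4.62 members per 100 kb. Kinase signalling genes held a member in 11 of 37 genes (29.7%) with a median of 1500 rule-meeting bases, and 12.3 members per 100 kb. Besides Lk6 and InR these included Src64B, msn, Raf and Egfr.

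Genes of the Notch, Hedgehog, Wnt and BMP pathways held a member in 6 of 29 (8.20 per 100 kb). Mad, the transcription factor of BMP signalling, led them at ranks 217, 372 and 299, followed by its partner gene shn at 537, 687 and 682. Chromatin regulators held one in 5 of 44 with a median of 489.5 bases, and 15.2 per 100 kb, 3 of their 7 members being those of Trl; Sin3A followed at ranks 678, 991 and 2740.

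The lists of transcription factor genes lay nearer the density of all rule-meeting bases. They do not hold every such gene. Mad (1 member), shn (3), Trl (3), aop (2) and pnt (1) also encode transcription factors and were counted in the denser lists above. Of these, aop and pnt were in the kinase signalling list. The lists therefore do not compare transcription factor genes with other genes. The nervous system list held a member in 6 of 25 genes (5.47 per 100 kb), led by elav (ranks 724, 2062 and 1998) and psq (1165, 1979 and 1029). Of these, elav encodes an RNA-binding protein, and its site was also counted in the RNA-binding list. That site lies in arg and lncRNA:enrr as well. Hormone response factors held one in 4 of 23 (4.24), among them the ecdysone receptor gene EcR at 532, 620 and 888 and Hr4 at 1375, 2030 and 1716. Factors of early patterning held one in 3 of 37 (4.50), with grh next after ush. The bZIP and immediate response list had 4 of 18 (5.45), led by Pdp1 and Mnt. RNA-binding genes had 7 of 31 (4.56), led by brat and mub.

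Ion channel and synapse genes had the lowest density of the 15 lists. They held one in 2 of 29 with a median of 4191 rule-meeting bases (1.40 per 100 kb), namely KCNQ, a potassium channel gene whose site ranked 332, 2046 and 342, and the synaptic scaffold gene dlg1. Cell adhesion and axon guidance genes had 5 of 35 (3.17), led by the netrin gene NetB and its receptor gene fra, and muscle genes 3 of 27 (3.37), led by kirre and Zasp66. Membrane transport and metabolism genes had 3 of 26 (6.12), led by Zw and Gs2, cell cycle genes 2 of 27 (5.85), CycE and Cdk4, and the ZAD zinc-finger genes 1 of 21 (5.29), l(3)neo38. For several sites named in these lists the nearest TSS was that of another gene. It was tRNA:Asn-GTT-1-1 for EcR, hog for NetB, mlt for KCNQ and asRNA:CR44512 for Zw. No test was made of any list.

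Members were spread over the 5 long chromosome arms. Arm 2L held 73 (3.53 per 100 kb of rule-meeting bases), 2R 103 (4.87), 3L 103 (4.47), 3R 134 (5.14) and X 116 (5.27). Chromosomes 4 and Y held 0, on 0.129 Mb and 0.0175 Mb of rule-meeting bases. Optimal peaks next to the limits of the rule were CG10543 and CG46339, both at 502 bp, and CHES-1-like and Kdm2 at 1994 and 1988 bp on the inside, and Dif at 498 bp, a site at Hr3 at 498 bp, mwh at 2006 bp and fru at 2014 bp on the outside.

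A single rule-meeting peak was shared by all replicates without being an optimal peak. Of 287 such peaks of replicate 1 that were in the top list of every replicate, 1 had no optimal summit within 100 bp. It lay in loco at 3R:22624894, a gene of G protein signalling, and ranked 2380, 1692 and 3144.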

How the data were processed

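Peak lists were analysed as the authors deposited them, on dm6 only. Per the deposited file listing, each replicate had a relaxed list of peaks and background, and the optimal list came from the irreproducible discovery rate procedure. Sequencing depth is unknown, and no source used here names the aligner, the peak caller, their versions or the thresholds. The deposited signal is the authors' score with no stated scale and served only for ranks within 1 list. No use was made of the −log10 q values that the authors deposited. The summit came from the deposited offset from the peak start. Counts per list and percentages of peaks were computed here.

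Gene models were Ensembl release 115 (BDGP6, 18277 genes, 23694 TSS positions), after 5889 transposable element entries were left out, and sequence was RefSeq release 6. Rule-meeting bases were all non-N positions that satisfy the rule. Intervals cover counting error only. Differences were taken within each replicate and tested by two-sided exact permutation of signs (scipy 1.17.1, numpy 2.4.6, Python 3.11.15; figures with matplotlib 3.10.9), after checks on simulated data. p-values reflect only how far the 3 within-replicate differences agree in sign and size. Separate embryo collections for the replicates are not described.

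The members and lists were chosen with earlier results of these data known. The 5 density comparisons, the 6-letter strings, the shares of genes with a promoter peak, the split of flanks by exons and the removal of transposable elements were added after the files were seen. Named genes are hosts of the 30 highest members and hosts of 3 or more. Further ones are the 2 highest members of each of 15 lists and the peaks next to each limit. Others named are the strongest absent members, further list members and loco, chosen after their values were seen. Genes that overlap a named site or own its nearest TSS are also named. Of 519 listed symbols, 16 had no match. The result of 1 list and 1 of the sequences that the rule selects are not reported here.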

Additional observations from a re-analysis of the deposited data

How the results depend on the processing

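The number of members was 257 among the 1877 highest optimal peaks and 539 with transposable elements counted as genes. It was 716 with a lower limit of 250 bp and 419 with an upper limit of 1500 bp. With exons of protein-coding genes only it was 558, and with protein-coding start sites 504. When only members found in both remaining replicates were kept, it was 324 to 373. Recovery was 70.8% within 50 bp, 95.7% in the whole relaxed lists and 96.2% for the 1877 highest, by construction of the wider list or the smaller set. The recovery difference from promoter peaks reversed to 1.61 percentage points in the whole relaxed lists and ranged from −1.62 to 0.778 with single replicates left out; that from deep intronic peaks reversed to −0.888 in the whole relaxed lists and −1.04 among the 1877 highest. The cause was not tested. Rank differences kept their direction under every alternative run. The share of replicate peaks that met the rule was 13.1% in the whole relaxed lists, 13.03% with protein-coding start sites, 10.8% with an upper limit of 1500 bp and 14.0% with transposable elements counted as genes. Of the density differences, added after seeing the data, the one between downstream and upstream sides reversed to −0.0784 in the 1877 highest replicate peaks, and the other 4 kept their direction with a replicate left out, in those 1877, without chromosomes 4 and Y, and with transposable elements counted as genes. With 200 bp windows CGATA went from 3 fewer to 3 more centres than flanks. Samples could not be paired between conditions, because they form 1 group. Classes of peaks were compared by differences within each replicate. With 200 bp windows the AP-1 site TGACTCA went from 4 more to 2 fewer centres than flanks. Depth is unknown, so an absent peak could not be told apart from shallow sequencing.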
